A study of Mus musculus with 12 samples.

Results

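The 10 genes described here are core monocyte and macrophage genes (Adgre1, Cd68, Csf1r, Csf1, Lyz2, Mrc1, Cd163, Mertk, Ly6c2 and Cd14), taken by symbol from a file of 55453 genes. All 10 were found, and all 10 passed the filter on low counts, as did 18311 genes in all. They were read by RNA-Seq in whole skin of 12 mice on the C57BL/6 background, in 4 groups of 3. WT mice were C57BL/6J, and the study's methods describe all control mice as littermates. The sex of the WT mice is not given in the sources used here. All 12 mice are entered here at 8 to 12 weeks, an age that the methods state beside the KO mice only. Thy-1–KO mice, females of 8 to 12 weeks per the study's methods, carry a global deletion of Thy-1, a surface protein of fibroblasts, T cells and other cells, in all cell types rather than in 1. Both genotypes received either bleomycin (BLM, 10 mg/kg/d) or PBS under the skin at a pair of spots on the back for up to 14 days, and skin was harvested on day 21. The comparisons ask how the macrophage genes differed after bleomycin in each genotype, and whether they differed between the genotypes.

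Blood monocytes enter injured skin and can become macrophages there, beside macrophages that were resident before the injury. CSF1, made largely by fibroblasts and other stromal cells, keeps both kinds alive through the receptor CSF1R. F4/80 (Adgre1), CD68 and lysozyme M (Lyz2) mark the lineage broadly, Ly6C (Ly6c2) and CD14 mark recruited monocytes, and the mannose receptor (Mrc1), CD163 and MERTK are known from resident and scavenging macrophages. In bulk skin, fewer cells of a type and less RNA per cell cannot be told apart.

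A pair of the genes has a near-identical neighbour whose reads can be miscounted, and the stretches where the copies differ most are shown because they bear on how far the Ly6c2 and Lyz2 counts can be read. Ly6c1, a gene of endothelial cells and some lymphocytes, has the same coding length as Ly6c2 (393 bases) and differs from it at 9 bases (97.7% identity). Lyz1, the lysozyme of Paneth cells, differs from Lyz2 at 22 of 444 coding bases (95.05% identity). Both 60-base stretches lie in coding exons on the minus strand (GRCm38, GENCODE M21), and capitals mark the bases that differ between the copies.
Ly6c2, chr15:75111603-75111662: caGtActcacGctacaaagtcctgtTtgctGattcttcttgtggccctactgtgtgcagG
Ly6c1, chr15:75048447-75048506: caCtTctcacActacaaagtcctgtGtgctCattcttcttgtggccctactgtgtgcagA
Lyz2, chr10:117282123-117282182: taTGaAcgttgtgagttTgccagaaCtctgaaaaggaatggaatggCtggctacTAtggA
Lyz1, chr10:117292719-117292778: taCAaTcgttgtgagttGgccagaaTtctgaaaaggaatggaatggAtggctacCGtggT
The Ly6c stretch holds 6 of the 9 differences and the Lyz stretch 9 of the 22. Of the distinct 50-base words in the annotated transcripts, 31.2% of those of Ly6c2 and 15.4% of those of Lyz2 also occur in another gene, against 0.0892% for Cd163 and 0% for each of the other 7 genes. In the same annotation Csf1r and the following genes lie on the plus strand: Adgre1 (chr17:57358691-57483527), Cd163 (chr6:124304656-124330527), Mrc1 (chr2:14229392-14332057) and Mertk (chr2:128698956-128802894). On the minus strand lie Cd14 and Cd68 (chr11:69664213-69666153), Csf1 (chr3:107741048-107760469), Lyz2 (chr10:117277331-117282321) and Ly6c2 (chr15:75108158-75111970). Mertk overlaps the antisense gene Gm14011 and Csf1r overlaps Hmgxb3 on the other strand. These are overlaps of whole genes, introns included, and overlap of their exons was not tested. Whether the counting used strand is not given in the sources used here, so reads of these neighbours may be among theirs.

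Promoters are shown for Ly6c2 and Cd163, which moved in opposite directions after bleomycin, and for Cd68, a broad lineage marker. These are the 250 bases before the RefSeq start (GRCm38.p6), written along the gene's own strand, and RefSeq entries were matched for 7 of the 10 genes. Capitals mark matches on either strand to GAGGAA (the core of the site of PU.1, the lineage factor of myeloid cells), TTGCNNAA (C/EBP), TGCTGAC (a MAF half-site), TGANTCA (AP-1) or TATAAA (the TATA box).
Ly6c2, minus strand of chr15:75111972-75112221: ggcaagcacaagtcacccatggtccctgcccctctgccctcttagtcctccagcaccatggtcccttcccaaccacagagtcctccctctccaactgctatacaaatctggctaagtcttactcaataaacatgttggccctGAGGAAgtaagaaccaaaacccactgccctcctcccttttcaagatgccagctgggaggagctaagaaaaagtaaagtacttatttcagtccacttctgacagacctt
Cd163, plus strand of chr6:124304401-124304650: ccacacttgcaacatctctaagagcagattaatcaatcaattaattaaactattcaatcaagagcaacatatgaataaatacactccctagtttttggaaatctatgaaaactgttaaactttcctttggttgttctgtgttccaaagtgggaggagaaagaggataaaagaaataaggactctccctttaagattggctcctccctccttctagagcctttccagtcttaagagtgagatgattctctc
Cd68, minus strand of chr11:69666171-69666420: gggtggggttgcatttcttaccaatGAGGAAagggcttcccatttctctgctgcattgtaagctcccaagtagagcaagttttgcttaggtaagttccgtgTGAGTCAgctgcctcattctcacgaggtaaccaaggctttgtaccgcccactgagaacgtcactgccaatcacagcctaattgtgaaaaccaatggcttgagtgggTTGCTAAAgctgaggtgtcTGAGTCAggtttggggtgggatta
In Ly6c2 the capitals are 1 GAGGAA match that begins 108 bases before the start. Cd68 holds 1 GAGGAA match, 1 TTGCNNAA match and 2 TGANTCA matches, and the Cd163 window holds none of the 5 motifs. Among 27025 promoters of the same length, 23.1% hold GAGGAA, 9.55% TTGCNNAA, 3.72% TGCTGAC, 6.87% TGANTCA and 12.97% TATAAA. A match describes the letters only, and none of these sites was measured here.

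Library totals ran from 26473700 to 38890450 counts. Thy1 was counted in every mouse, at 123 ± 23.7 CPM in WT PBS against 73.3 ± 25.9 in KO PBS mice and 332 ± 93.8 in WT BLM against 103 ± 22.4 in KO BLM mice (SD, n = 3 each). The KO mice lay below the WT mice of the same treatment without overlap, but Thy1 did not pass the test (log2 differences of -0.75 and -1.69, edgeR adjusted p = 0.224 and 0.112). A count per gene cannot show which part of Thy1 was read. The libraries also differed in genes that hair follicles use while a hair grows: over 29 of 30 listed genes the mean log2 CPM was between 8.87 and 9.98 in 5 libraries (all 3 WT PBS mice, KO PBS mouse 136 and KO BLM mouse 141) and between -0.73 and 5.90 in the other 7. KO PBS mouse 136 therefore stood apart from KO PBS mice 137 and 139, so KO results below are also given without mice 136 and 141, a choice made after the data were seen. Values between mice are CPM, the counts relative to the library total after TMM scaling, and the mice of a group are separate animals.

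Within a group the genes lay at very different levels. Per kilobase of annotated exon, Lyz2 was the most abundant in WT PBS skin at 169.8 ± 58.7 CPM per kb (SD, n = 3), followed by Cd68 at 25.1 ± 6.14 and Csf1r at 17.6 ± 5.82. Mrc1 came next at 12.3 ± 7.33 CPM per kb. Adgre1, Csf1, Cd163 and Mertk lay within 1 SD of each other at 7.67, 7.50, 7.33 and 7.29 CPM per kb. Cd14 was lower at 3.43 ± 0.856 CPM per kb, and Ly6c2 was the lowest at 0.0868 ± 0.0319. In WT BLM skin the order on the same scale was Lyz2 (974 ± 107), Cd68 (93.0 ± 23.2), Csf1r (53.3 ± 12.4), Adgre1 (38.2 ± 13.6), Mrc1 (25.2 ± 10.3), Cd14 (20.1 ± 4.48), Csf1 (15.5 ± 3.32), Mertk (6.80 ± 2.23), Cd163 (3.10 ± 1.24) and Ly6c2 (2.90 ± 1.197). Taking neighbours in these orders whose ranges of mean ± 1 SD met as not apart, Cd68, Csf1r, Mrc1 and Adgre1 were not apart from the next in WT PBS skin. In WT BLM skin neither were Csf1r, Adgre1, Mrc1, Cd14 and Csf1, nor Cd163 and Ly6c2. Cd163 was thus level with Adgre1 in WT PBS skin and with Ly6c2 in WT BLM skin. Lyz2, Cd68 and Csf1r also came first in KO skin, at 364, 46.1 and 31.5 CPM per kb in KO PBS and 701, 75.3 and 30.5 in KO BLM mice, and Cd163 came last in KO BLM skin at 2.08.

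**Figure D1:**
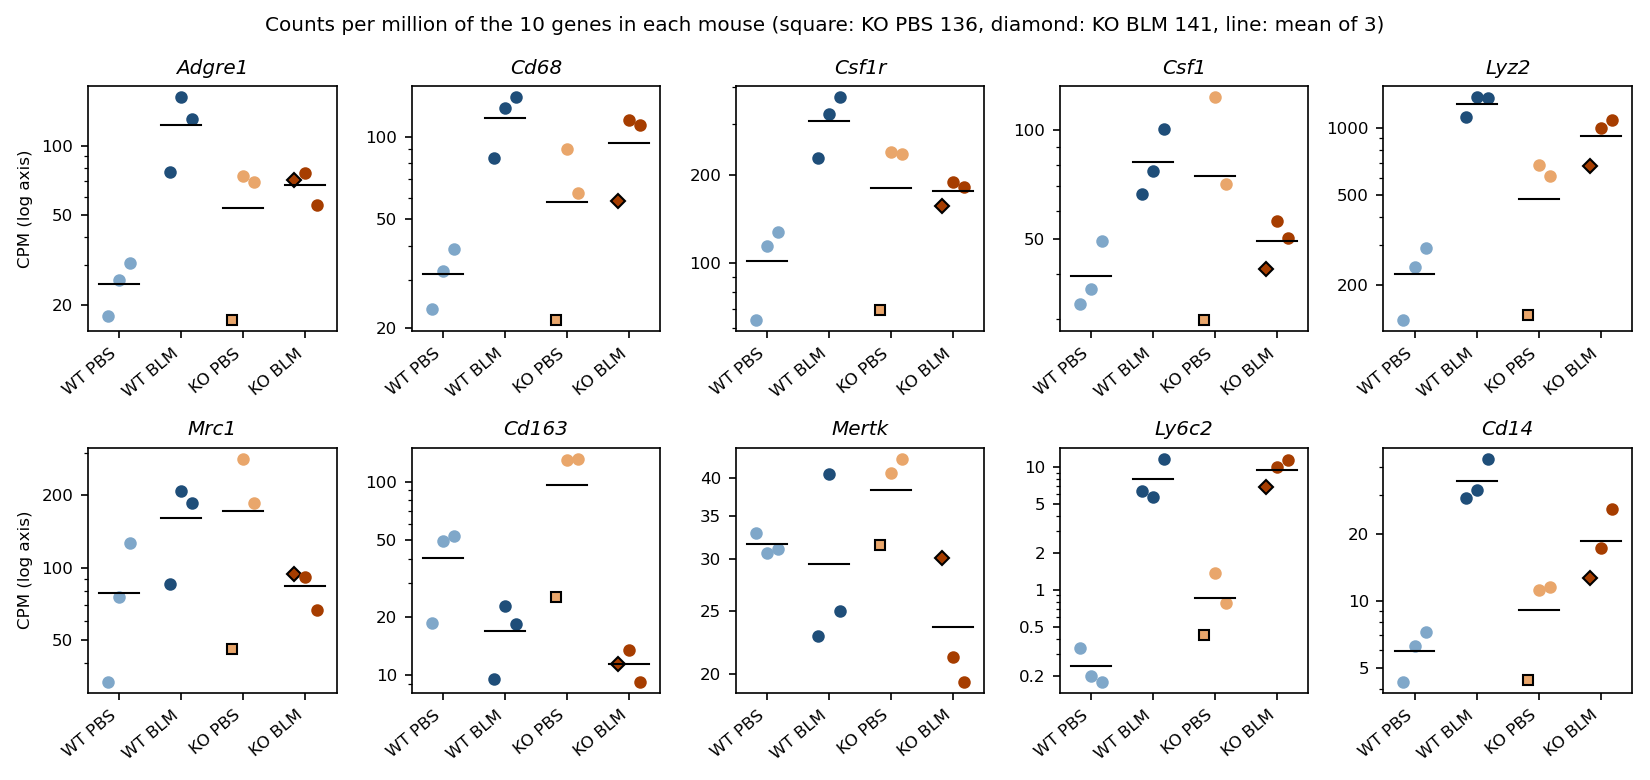
CPM on log axes for each gene (panels) in each of 12 mice, with 3 mice per group and the mean as a line. The square is KO PBS mouse 136 and the diamond KO BLM mouse 141; all 6 BLM mice lie above all 6 PBS mice for Ly6c2 (5.74 CPM or more against 1.37 or less) and for Cd14 (12.7 or more against 11.6 or less), and Cd163 is lower in every KO BLM mouse than in any KO PBS mouse.

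After bleomycin in WT skin, 6 of the 10 genes rose (Adgre1, Cd68, Csf1r, Lyz2, Ly6c2 and Cd14), none fell, and Csf1, Mrc1, Cd163 and Mertk did not pass the test (edgeR quasi-likelihood, Benjamini-Hochberg adjusted p under 0.05 over 18311 genes). Of all genes tested, 19.8% rose and 14.1% fell in this comparison. The 3 WT BLM mice lay above all 3 WT PBS mice for 7 genes, the 6 named and Csf1, where 28.3% of all genes did so and 28.7% lay below without overlap. The median log2 fold change of the 10 genes was 1.74, against 0.02 over all genes. In Thy-1–KO skin, 1 of the 10 genes rose, Ly6c2, and none fell, where 0.251% of all genes rose and 0.0546% fell. Ly6c2 and Cd14 were higher without overlap in KO BLM than in KO PBS mice, and Cd163 and Mertk lower, where 10.8% of all genes were higher and 8.44% lower in this way. The KO median was 0.15. Averaged over both genotypes, 5 genes rose (Adgre1, Cd68, Lyz2, Ly6c2 and Cd14) and Cd163 fell, where 14.7% of all genes rose and 8.17% fell. The average calls of Adgre1 and Cd68 were lost without WT PBS mouse 159 or 160 or KO BLM mouse 143, and that of Cd68 also without WT BLM mouse 147 or KO BLM mouse 144, with adjusted p up to 0.0596 and 0.0588.

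**Figure D2:**
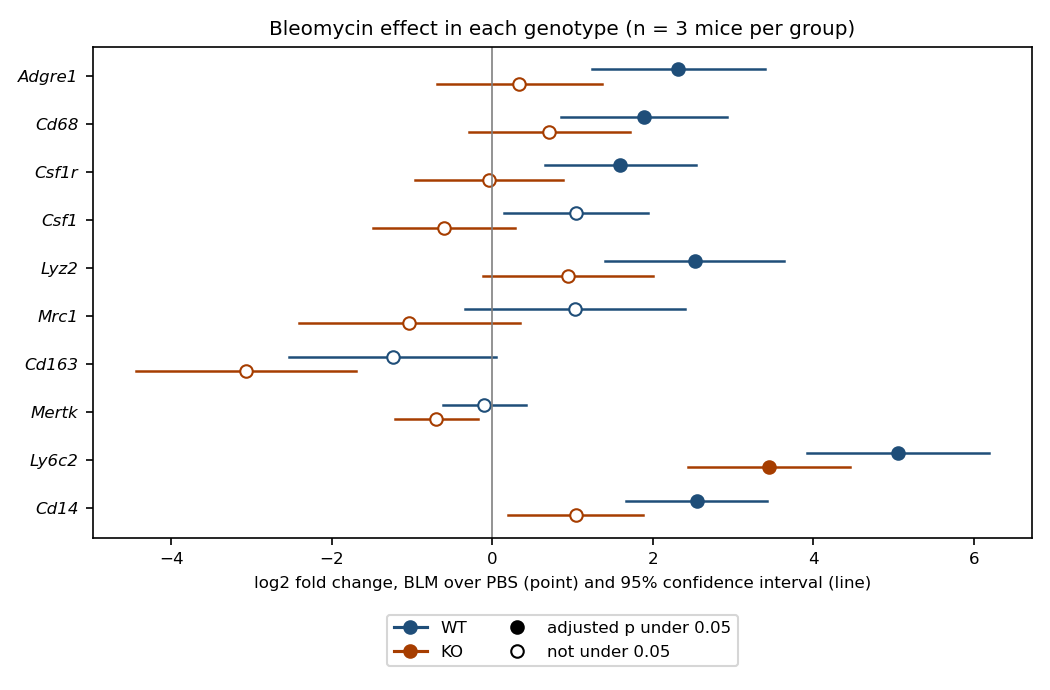
Log2 fold change after bleomycin for each gene in WT (blue) and KO skin (orange), with 95% confidence intervals and filled points where the adjusted p is under 0.05. The filled points are 6 for WT and 1 for KO, and every KO point lies to the left of its WT point.

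Adgre1 encodes F4/80, a surface receptor of mature mouse macrophages. Its CPM were 17.95, 25.8 and 30.8 in WT PBS mice and 76.5, 164 and 131 in WT BLM mice. KO PBS mice had 17.2, 73.7 and 69.2, and KO BLM mice 70.9, 76.0 and 55.3. The WT groups did not overlap, whereas in KO skin mouse 136 alone was at the WT PBS level and the other KO PBS mice were among the KO BLM mice. The log2 fold change was 2.32 ± 0.49 in WT (SE, 4.98-fold, adjusted p = 0.00945) and 0.34 ± 0.46 in KO (adjusted p = 0.705), and without mice 136 and 141 the KO value was -0.12 (adjusted p = 0.813).

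Cd68, a glycoprotein of lysosomes and late endosomes in phagocytes, was at 23.4, 32.3 and 38.8 CPM in WT PBS mice and at 83.9, 127 and 139.6 in WT BLM mice. Its KO PBS values were 21.4, 90.1 and 62.3, and its KO BLM values 58.2, 115 and 110.4. All WT BLM mice were above the WT PBS mice, and the KO groups overlapped through KO BLM mouse 141, which was below KO PBS mice 137 and 139. Cd68 rose in WT (log2 fold change 1.89 ± 0.47, adjusted p = 0.0158) and was 0.71 ± 0.45 in KO (adjusted p = 0.393; 0.57 and 0.177 without mice 136 and 141). The WT call was lost without WT PBS mouse 159 (adjusted p = 0.0637) or mouse 160 (0.0568), as was that of Csf1r (0.0753 and 0.0608), which was also lost without WT BLM mouse 147 (0.0597).

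Lyz2 encodes lysozyme M, an antibacterial enzyme made in quantity by macrophages, monocytes and neutrophils. WT PBS mice had 139, 241 and 291 CPM and WT BLM mice 1119, 1369 and 1358. In KO PBS mice the values were 147, 684 and 608, and in KO BLM mice 679, 1002 and 1087. Each WT BLM mouse was above every WT PBS mouse, and KO BLM mouse 141 was at the level of the higher KO PBS mice. Lyz2 rose 5.74-fold in WT (log2 2.52 ± 0.50, adjusted p = 0.00804), and the KO log2 fold change was 0.94 ± 0.48 (adjusted p = 0.296), or 0.69 (adjusted p = 0.124) without mice 136 and 141. Lyz1, its copy, was at 73.8 ± 8.27 CPM in WT BLM and 27.2 ± 4.16 in KO BLM mice, far under Lyz2, and with Lyz1 counts added to it the Lyz2 calls were unchanged in all 6 comparisons.

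For the ligand and receptor pair, Csf1r, the receptor kinase for CSF1 and IL-34, had 63.8, 114 and 128 CPM in WT PBS mice and 229, 324 and 370.2 in WT BLM mice. KO PBS mice were at 69.4, 239.7 and 236, and KO BLM mice at 157, 189.7 and 182. The KO BLM mice lay between KO PBS mouse 136 and the other KO PBS mice. Csf1r rose in WT (log2 fold change 1.60 ± 0.42, 3.02-fold, adjusted p = 0.0202) and was at -0.04 ± 0.41 in KO (adjusted p = 0.965), or -0.36 (adjusted p = 0.418) without mice 136 and 141.

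Csf1, the growth factor itself, was at 33.1, 36.4 and 49.3 CPM in WT PBS mice and at 66.8, 77.4 and 101 in WT BLM mice. Its KO PBS values were 29.8, 123 and 71.2 CPM and its KO BLM values 41.3, 56.3 and 50.4. The WT groups did not overlap, but the log2 fold change of 1.05 ± 0.40 did not pass with edgeR over all 4 groups (adjusted p = 0.0669). Csf1 passed in WT with DESeq2 (adjusted p = 0.0463) and with only the 2 groups compared (adjusted p = 0.00658), which brings the WT count to 7 of 10 genes under either. In KO it was -0.60 ± 0.40 (adjusted p = 0.413), and -0.87 (adjusted p = 0.0613) without mice 136 and 141.

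Ly6c2, the Ly6C antigen of classical monocytes, was the gene with the largest change of the 10. It was near absent from PBS skin, with 10, 6 and 7 counts (0.338, 0.197 and 0.178 CPM) in WT PBS mice and 13, 48 and 26 counts (0.432, 1.37 and 0.775 CPM) in KO PBS mice. WT BLM mice had 163, 176 and 357 counts (6.38, 5.74 and 11.7 CPM) and KO BLM mice 226, 321 and 326 (6.92, 9.95 and 11.5 CPM). No bleomycin mouse of either genotype overlapped with a PBS mouse. Ly6c2 rose 33.2-fold in WT (log2 5.05 ± 0.51, 95% confidence interval 3.92 to 6.19, adjusted p = 0.00215) and 10.9-fold in KO (log2 3.45 ± 0.46, interval 2.43 to 4.46, adjusted p = 0.0312). The KO call was lost without any 1 of 6 mice (WT PBS 159, 160 or 161, KO PBS 139, KO BLM 143 or 144), with adjusted p from 0.0590 to 0.146, and held with adjusted p = 0.00546 without mice 136 and 141. Ly6c1, its copy, was at 54.2 ± 12.3 CPM in WT PBS against 58.9 ± 33.2 in WT BLM mice, and at 113 ± 54.7 in KO PBS against 61.6 ± 11.1 in KO BLM mice. The summed counts of Ly6c1 and Ly6c2, nearly all from Ly6c1, had log2 fold changes of 0.30 in WT (adjusted p = 0.604) and -0.68 in KO (adjusted p = 0.379). The rise therefore holds for reads assigned to Ly6c2 alone.

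Cd14, the lipopolysaccharide co-receptor of monocytes and macrophages, was at 4.33, 6.28 and 7.23 CPM in WT PBS mice and at 29.1, 31.5 and 43.6 in WT BLM mice. KO PBS mice had 4.42, 11.2 and 11.6 CPM, and KO BLM mice 12.7, 17.3 and 25.9. Neither genotype's groups overlapped, and each KO BLM mouse was below every WT BLM mouse. Cd14 rose 5.83-fold in WT (log2 2.54 ± 0.40, adjusted p = 0.00440). In KO the log2 fold change of 1.04 ± 0.38 did not pass with all 12 mice (adjusted p = 0.179) and passed without mice 136 and 141 (0.92, adjusted p = 0.0485).

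Cd163, the scavenger receptor that takes up haemoglobin bound to haptoglobin, went the other way. Its CPM were 18.6, 49.3 and 52.2 in WT PBS mice and 9.55, 22.9 and 18.4 in WT BLM mice. KO PBS mice had 25.4, 129.9 and 131, and KO BLM mice 11.4, 13.4 and 9.22. KO BLM mice were all below KO PBS mice, and the WT groups overlapped only through WT PBS mouse 159. Cd163 fell on average over both genotypes by 2.16 on the log2 scale (SE 0.42, adjusted p = 0.00833). The WT value alone was -1.24 ± 0.58 (adjusted p = 0.117) and the KO value -3.07 ± 0.62 (edgeR adjusted p = 0.0681). Without mice 136 and 141 the KO value was -3.53 (adjusted p = 0.00810), and with DESeq2 in place of edgeR -3.10 (adjusted p = 1.49e-05).

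Mrc1, the mannose receptor CD206, had 33.4, 75.6 and 127 CPM in WT PBS mice and 85.6, 209 and 187 in WT BLM mice. In KO PBS mice it was at 45.9, 285 and 186 CPM, and in KO BLM mice at 94.2, 91.2 and 66.8. Its groups overlapped in both genotypes, and the WT PBS and KO PBS mice differed among themselves by several fold. The log2 fold changes were 1.03 ± 0.62 in WT (adjusted p = 0.211) and -1.04 ± 0.62 in KO (adjusted p = 0.362), with an average of -0.0021 over both. Without mice 136 and 141 the KO value of Mrc1 was -1.58 (adjusted p = 0.0813).

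Mertk, a receptor kinase through which macrophages bind apoptotic cells, varied least. WT PBS mice had 33.0, 30.7 and 31.2 CPM, and WT BLM mice 22.9, 40.6 and 25.0. KO PBS mice were at 31.5, 40.7 and 42.8 CPM and KO BLM mice at 30.2, 21.2 and 19.5. Only in KO skin were the groups separate, by the small gap between KO PBS mouse 136 and KO BLM mouse 141. The log2 fold change was -0.10 ± 0.23 in WT (adjusted p = 0.755) and -0.70 ± 0.24 in KO (adjusted p = 0.165), and the KO value was -1.04 (adjusted p = 0.0203) without those mice.

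Between the genotypes, none of the 10 genes passed the test in PBS skin or in bleomycin skin. All 10 had a higher fitted level in KO PBS than in WT PBS skin, with a median log2 difference of 1.01 against 0.02 over all genes, 4 of them with an unadjusted p under 0.05. DESeq2 called 1, Ly6c2, where it called 3.69% of all genes. The genotypes did not overlap for 1 gene, Ly6c2 (log2 difference 1.86 ± 0.49, edgeR adjusted p = 0.198), where 8.62% of all genes were higher and 10.3% lower in this way, and 0.0655% of all genes passed the test. With the mean of the hair genes as a covariate, 6 of the 10 turned lower in KO PBS skin (Cd68, Csf1r, Csf1, Lyz2, Mrc1 and Cd14, from -0.08 for Mrc1 to -0.35 for Cd68) and none was called, where 0.0655% of all genes were. In bleomycin skin 9 of the 10 were lower in KO than in WT mice (median -0.65, against -0.03 over all genes). Adgre1, Csf1r, Csf1, Lyz2 and Cd14 were lower without overlap, where 12.9% of all genes were lower and 14.6% higher in this way. The unadjusted p was under 0.05 for 1 of the 10, Cd14 (log2 difference -0.90 ± 0.38, edgeR adjusted p = 0.284), and 0.0928% of all genes passed. DESeq2 called none of the 10, where it called 2.99% of all genes. With the hair covariate 5 of the 10 were lower and 5 higher in KO, and without mice 136 and 141 again 9 were lower, from -0.048 for Cd68 to -1.02 for Mrc1, with none called in either fit.

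The KO response to bleomycin minus the WT response was tested in the same fit. All 10 genes had a smaller or more negative response in KO, with a median log2 difference of -1.62 against -0.05 over all genes, and 8 had an unadjusted p under 0.05. None passed with edgeR over 18311 genes, of which 0% passed (smallest adjusted p 0.0604, 5687 genes with an unadjusted p under 0.05), and the adjusted p of the 10 ran from 0.0963 (Adgre1) to 0.232 (Mertk). The 2 largest differences were Mrc1 (-2.07 ± 0.88, adjusted p = 0.143) and Adgre1 (-1.98 ± 0.66). DESeq2 called 4, namely Adgre1, Csf1r, Csf1 and Cd14, with adjusted p between 0.0281 and 0.0456, where it called 17.8% of all genes. The direction turned with the hair covariate: 7 of the 10 differences were then above 0, from 0.085 for Cd14 to 0.92 for Cd68, and Adgre1 (-0.36), Mrc1 (-0.016) and Mertk (-0.76) remained below 0. None was called in that fit (smallest adjusted p 0.747), where 0% of all genes were. The fit takes 1 hair slope for all groups. The hair mean ran from -0.73 to 9.87 in KO PBS mice, where only mouse 136 was high. In WT PBS mice it ran only from 9.29 to 9.98. The WT treatments do not overlap in hair genes, so the WT response in that fit rests on a slope that leans on mouse 136.

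These comparisons turned on KO PBS mouse 136. Without it alone, 9 of the 10 genes were called higher in KO PBS than in WT PBS skin and 9 had a called difference of responses, in each case all but Mertk, where 36.7% and 39.9% of all genes were called. Between KO BLM and KO PBS, Ly6c2 was then called up and Csf1 and Cd163 down, where 14% of all genes were called. With KO BLM mouse 141 also left out, the difference of responses was called for all 10 genes (log2 difference from -0.93 for Mertk to -2.60 for Mrc1), where 38.6% of all genes were called. Then 9 of 10 were called higher in KO PBS than in WT PBS skin, where 40.9% of all genes differed, with log2 differences from 0.93 (Cd14) to 2.18 (Ly6c2). Between KO BLM and KO PBS 4 were called (Ly6c2 and Cd14 up, Cd163 and Mertk down), where 22.3% of all genes were called. Both KO groups then hold 2 mice each. KO PBS mouse 136 is also the KO PBS mouse with high hair genes. Without it, all WT PBS mice had high hair genes (mean log2 CPM of 9.29 to 9.98). The remaining KO PBS mice had low ones (-0.73 and 2.05). Genotype and hair genes in PBS skin then cannot be told apart, and this holds for the called differences of responses too. In the fit of all 12 mice with the hair covariate, the PBS difference of Lyz2 between the genotypes went from 1.10 to -0.21 on the log2 scale and that of Adgre1 to 0.16, neither called. The hair slope of that fit leans on mouse 136 too.

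**Figure D3:**
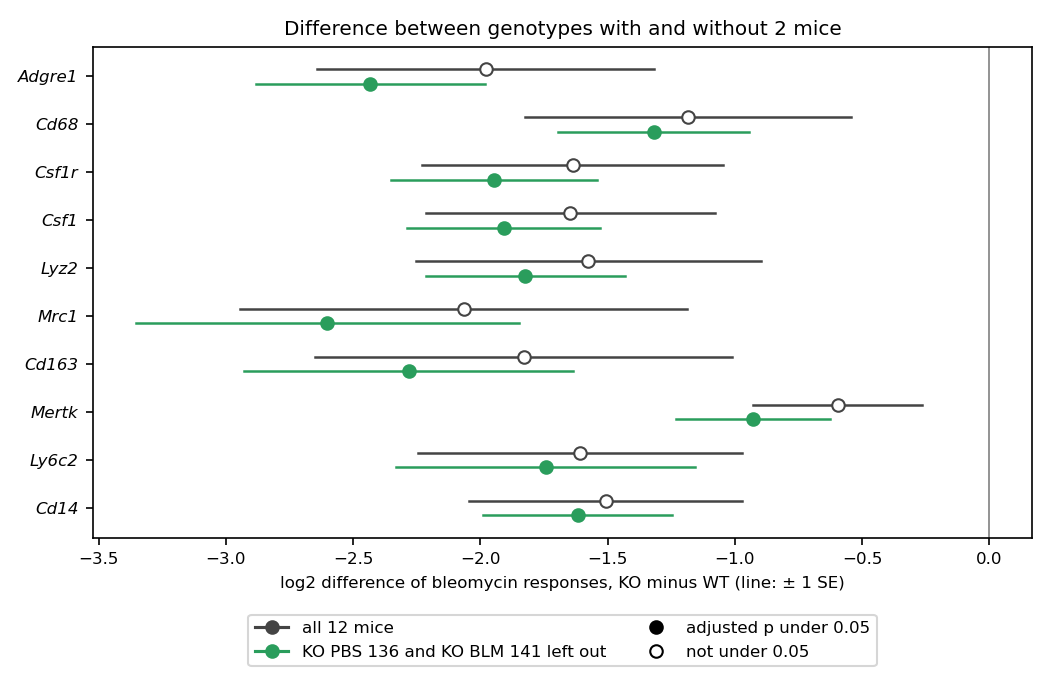
KO response minus WT response to bleomycin on the log2 scale, with lines of 1 SE, for all 12 mice (grey) and without KO PBS mouse 136 and KO BLM mouse 141 (green). All points lie below 0 in these fits, which hold no hair covariate (with it, 7 of the 10 lie above 0); the 10 open grey points have an adjusted p of 0.0963 or more, and the 10 green points are filled because each passed. In the green fit all WT PBS mice have high and all KO PBS mice low hair genes, so genotype and hair genes cannot be told apart in PBS skin.

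Ratios between genes in the same mouse were compared as well, for 4 pairs chosen with earlier results of these data known. A ratio whose treatments do not overlap in either genotype reaches the smallest p of the test used, whatever its size. All 4 did so, and their equal p therefore says nothing on the size of each. Cd163 over Adgre1, a scavenger receptor per unit of a lineage marker, had log2 ratios of 0.05, 0.94 and 0.76 in WT PBS mice and -2.99, -2.84 and -2.82 in WT BLM mice. KO PBS mice had 0.56, 0.82 and 0.92, and KO BLM mice -2.63, -2.50 and -2.58. Each genotype's PBS mice, mouse 136 included, lay well above its BLM mice, and the 6 PBS mice of both genotypes spanned less than 1 log2 unit. The ratio was lower by 3.47 on the log2 scale in WT and by 3.33 in KO bleomycin skin (average -3.40, pooled SD 0.26 within groups, exact permutation of treatment within genotype over 400 arrangements, two-sided p = 0.005 and adjusted p = 0.005 over 4 ratios, the smallest p that this test can give).

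Mrc1 over Adgre1 went the same way by less. Its log2 ratio was 0.89, 1.55 and 2.04 in WT PBS mice against 0.16, 0.35 and 0.52 in WT BLM mice. KO PBS mice had 1.41, 1.95 and 1.42, and KO BLM mice 0.41, 0.26 and 0.27. The treatments did not overlap in either genotype, with a difference of -1.15 in WT and -1.28 in KO (exact permutation p = 0.005, adjusted p = 0.005). Ly6c2 over Adgre1 rose, from -5.49, -6.63 and -6.99 in WT PBS mice to -3.57, -4.82 and -3.47 in WT BLM mice. In KO it went from -5.12, -5.68 and -6.37 in PBS mice to -3.35, -2.93 and -2.26 in BLM mice. The bleomycin difference of this log2 ratio was 2.42 in WT and 2.88 in KO (exact permutation p = 0.005, adjusted p = 0.005).

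Csf1 over Csf1r, the ligand per unit of its receptor, had log2 ratios of -0.95, -1.65 and -1.37 in WT PBS mice and -1.78, -2.06 and -1.87 in WT BLM mice. KO PBS mice had -1.21, -0.96 and -1.73, and KO BLM mice -1.93, -1.75 and -1.85. The groups did not overlap, although the gap between KO PBS mouse 139 and KO BLM mouse 143 was small. The ratio was lower after bleomycin by 0.58 in WT and 0.54 in KO on the log2 scale (exact permutation p = 0.005, adjusted p = 0.005). All 4 ratios kept an exact permutation adjusted p of at most 0.02 without any 1 mouse, under each other scaling and with a prior count of 0.5. Leaving out mouse 136 moved Cd163 over Adgre1 only to -3.45. The ratios were not run with the hair covariate or without mice 136 and 141 together. In WT skin, treatment and hair genes cannot be told apart in these ratios either.

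**Figure D4:**
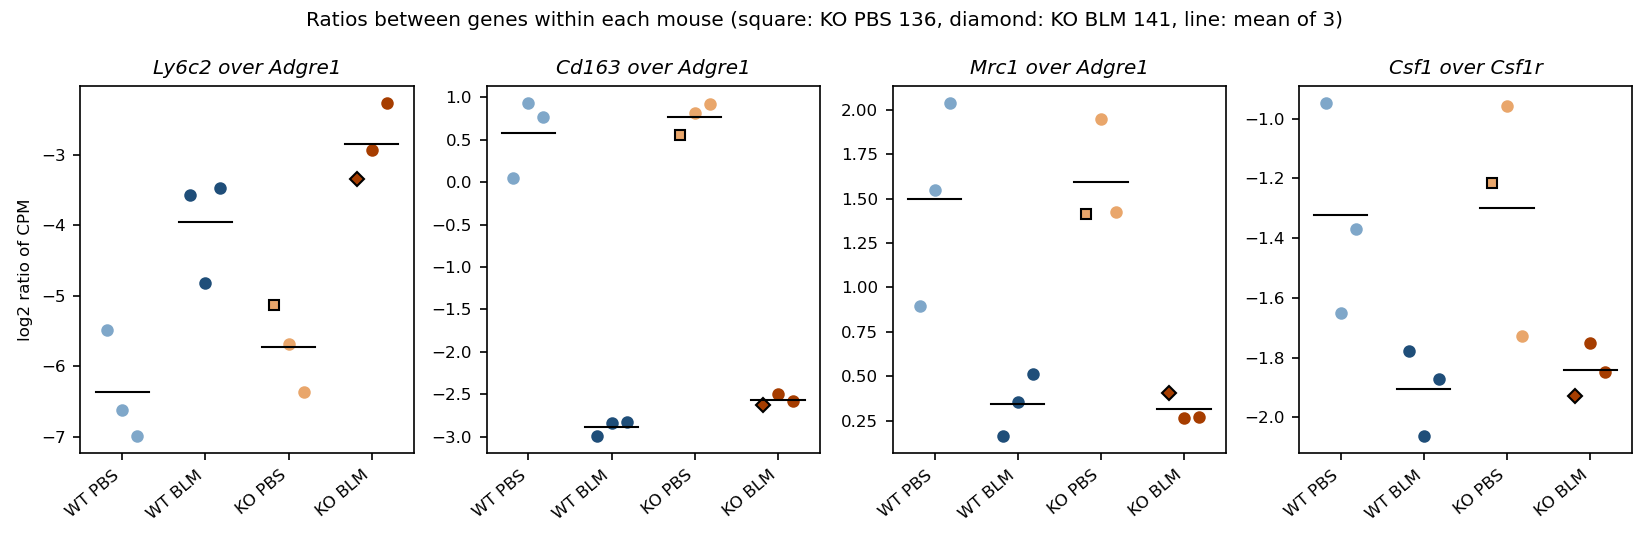
Log2 ratio of CPM between a pair of genes in each mouse, by group, with the mean as a line, the square KO PBS mouse 136 and the diamond KO BLM mouse 141. In each panel and genotype the PBS and BLM mice do not overlap, and for Cd163 over Adgre1 the BLM mice lie between -2.99 and -2.50 and the PBS mice between 0.05 and 0.94.

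In WT skin treatment and the hair genes cannot be told apart, since all 3 WT PBS libraries were high and all 3 WT BLM libraries low, and 17 of the 29 hair genes fell in that comparison. The 12 libraries can be set side by side by hair level instead, although this divides them by a value measured from them. It also mixes hair level with genotype. The 4 high-hair PBS mice are the 3 WT mice and KO mouse 136, and the 2 low-hair PBS mice are both KO. The 1 high-hair BLM mouse is KO mouse 141. Among PBS mice, Adgre1 was at 17.2 to 30.8 CPM in the 4 with high hair genes and at 69.2 and 73.7 in the 2 with low ones. Among BLM mice it was 70.9 in the 1 with high hair genes and 55.3 to 164 in the 5 with low ones, so the low-hair PBS mice lay inside the BLM range. Lyz2 was at 139 to 291 CPM in high-hair PBS mice and at 608 and 684 in low-hair PBS mice. It was at 679 in the high-hair BLM mouse and at 1002 to 1369 in low-hair BLM mice. The BLM mice thus lay above the PBS mice of their hair level, with only 1 BLM mouse at the high level. Cd163 was at 18.6 to 52.2 and 129.9 and 131 CPM in the same PBS mice, and at 11.4 and 9.22 to 22.9 in the BLM mice. Ly6c2 was at 0.178 to 0.432 and 0.775 and 1.37 CPM in PBS mice, and at 6.92 and 5.74 to 11.7 in BLM mice, with no overlap at either level. With the mean of the hair genes as a covariate, the WT comparison called 1 of the 10 genes, Ly6c2 (adjusted p = 0.0490), where 0.0601% of all genes were called. The WT values of that fit rest on a hair slope that leans on KO PBS mouse 136. The KO comparison called 5 (Cd68, Lyz2, Ly6c2 and Cd14 up, Cd163 down), where 9.37% of all genes were called, and the average over genotypes called those 5 in the same directions, where 10.7% were.

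**Figure D5:**
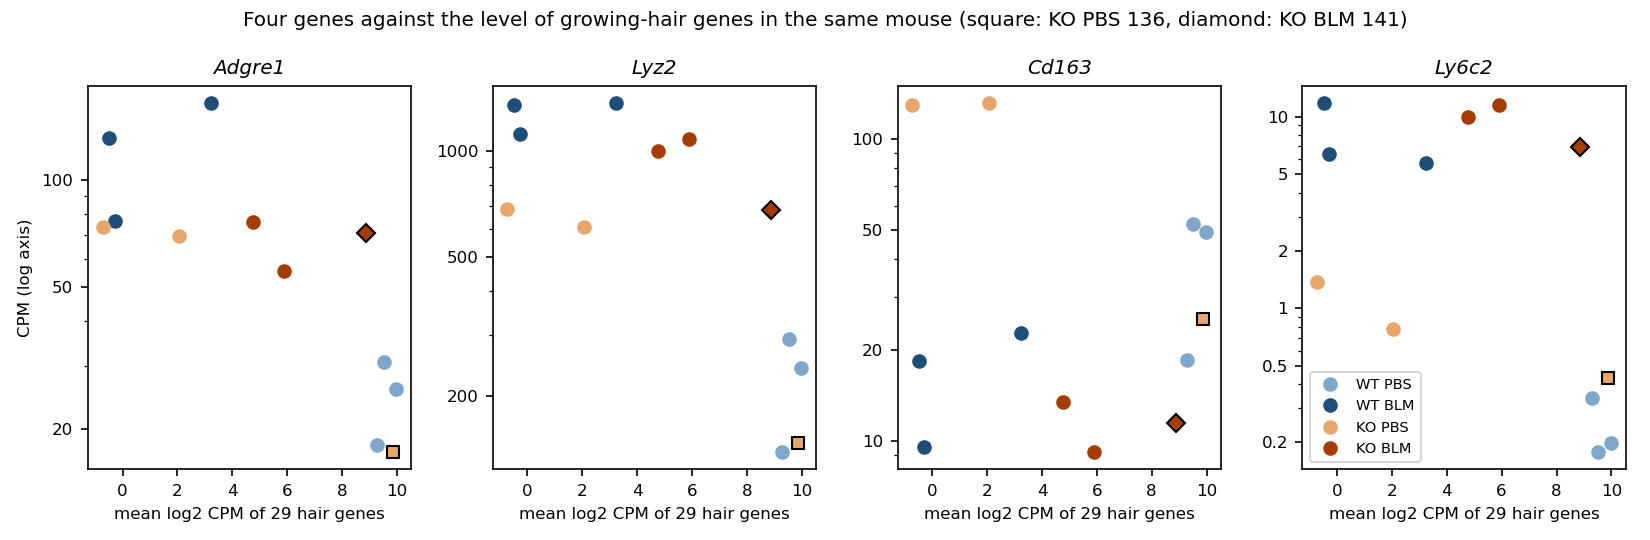
CPM of Adgre1, Lyz2, Cd163 and Ly6c2 (log axes) against the mean log2 CPM of 29 hair genes in the same mouse, coloured by group, with the square KO PBS mouse 136 and the diamond KO BLM mouse 141. Ly6c2 in BLM mice (5.74 CPM or more) is above PBS mice (1.37 CPM or less) at every hair level, while Adgre1 of the 2 low-hair PBS mice, near 70, is inside the range of the BLM mice. KO BLM mouse 141 is the only BLM mouse with high hair genes, and both low-hair PBS mice are KO.

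Genes of other cells moved in the same comparisons. Of all genes, 19.8% rose and 14.1% fell in WT, and 14.7% rose and 8.17% fell on average. All 8 general leukocyte genes rose in WT BLM skin, with a summed level of 152 to 250.0 CPM in WT PBS and 722 to 1153 in WT BLM mice, and all 8 rose on average over both genotypes, the most abundant, Laptm5, by 1.52 on the log2 scale (adjusted p = 0.0106). Of 11 T cell genes, 9 rose in WT and 10 on average, with sums of 41.9 to 48.9 CPM in WT PBS and 91.6 to 145 in WT BLM mice, and of 41.2 to 104 in KO PBS and 108 to 189 in KO BLM mice. Of 12 neutrophil genes 7 were tested, and 5 rose and 1 fell in WT, with sums of 10.4 to 15.6 CPM in WT PBS and 67.1 to 461 in WT BLM mice. S100a8 and S100a9, which monocytes also make, lead that sum, while Ly6g, the defining neutrophil gene, had 0 counts in 10 of 12 mice and at most 2. Lyz2 and Cd14 are also expressed by neutrophils, and which cells held the Ly6c2 RNA was not tested. Fibroblast genes, known sources of Csf1, rose in 6 of 10 cases in WT, with sums of 6468 to 8666 CPM in WT PBS and 11828 to 37243 in WT BLM mice. Skeletal muscle genes rose in 11 of 12 cases in WT, with sums of 5860 to 6456 and 20036 to 40956 CPM. No gene of these lists was called between KO BLM and KO PBS, where 0.251% of all genes rose and 0.0546% fell, and the median log2 fold change of the 7 neutrophil genes there was 3.23. The part of these cells in the levels of the 10 genes was not tested.

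Among 32 other monocyte and macrophage genes, 18 rose and 1 fell in WT BLM skin (median log2 fold change 1.57), 14 rose and 4 fell on average over both genotypes, and none was called in KO alone. Over all genes the shares were 19.8% up and 14.1% down in WT and 14.7% and 8.17% on average. In KO they were 0.251% and 0.0546%. The strongest on average were Cx3cr1, the fractalkine receptor (2.73 ± 0.30, adjusted p = 0.00124), and Clec4n, the lectin dectin-2 (2.94 ± 0.36, adjusted p = 0.00149), and Marco showed the least (-0.06 ± 0.61, adjusted p = 0.947). The 4 that fell, named after their values were seen, were the hyaluronan receptor Lyve1 (-2.29) and the lectins Cd209b (-2.15), Cd209f (-2.60) and Cd209g (-2.20). The lectins are known from resident tissue macrophages, as is Cd163. The 4 were picked by their fall and not by cell type, so they do not stand for resident macrophage genes as a set. Which cells of whole skin held the RNA of these genes, Lyve1 included, was not tested. Likewise named after their values were seen, Marco, Folr2, F13a1, Vsig4 and Clec10a had WT log2 fold changes between -0.22 and 0.16, with no adjusted p under 0.842. These values are for WT alone, whereas those of the 4 that fell are averages over both genotypes.

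Around Csf1r, 12 of 15 tested genes of the CSF1 and CSF2 receptor axis rose in WT and none fell (median 1.17), and 9 rose on average. The shares over all genes were 19.8% up and 14.1% down in WT, and 14.7% up on average. Csf3r, the G-CSF receptor (1.85 ± 0.30 on average, adjusted p = 0.00455), and the transcription factor Stat3 (0.78 ± 0.15, adjusted p = 0.00865) were first, and the PI3-kinase subunit Pik3r1 was last (-0.20 ± 0.21, adjusted p = 0.489). Csf3r is also in the list of neutrophil genes above. Il34, the other ligand of the receptor and named for that, was at 23.8 ± 0.734 CPM in WT PBS and 53.5 ± 13.7 in WT BLM mice and rose in WT (1.17 ± 0.35, adjusted p = 0.0308). Its levels in KO PBS and KO BLM mice were 50.7 ± 25.6 and 46.3 ± 7.25 CPM.

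Of 15 macrophage transcription factors, 5 rose and 2 fell in WT, and 4 rose and 1 fell on average. Over all genes, 19.8% rose and 14.1% fell in WT and 14.7% rose and 8.17% fell on average. The falls in this list were near these shares. On average Irf8, needed for monocytes and dendritic cells, was first (1.34 ± 0.25, adjusted p = 0.00699), Irf5 next (0.76 ± 0.14, adjusted p = 0.00762) and Egr1 last (0.03 ± 0.36, adjusted p = 0.952). Around Cd14, 7 of 11 genes of lipopolysaccharide recognition rose in WT and none fell, and on average 5 rose and 1 fell, against the same shares over all genes. Tlr2, a partner receptor of CD14, rose on average by 1.99 ± 0.25 (adjusted p = 0.00169) and Tlr1 by 2.14 ± 0.44 (adjusted p = 0.00972). Ticam2, an adaptor of TLR4, was at 0.43 ± 0.36 (adjusted p = 0.389).

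Around Cd163, 3 of 11 genes of haemoglobin and haem handling rose and 1 fell in WT, and 2 rose and 1 fell on average, near the shares over all genes (19.8% up and 14.1% down in WT, 14.7% up and 8.17% down on average). The ferritin chains rose on average, Ftl1 by 0.96 ± 0.21 (adjusted p = 0.0127) and Fth1 by 0.81 ± 0.24 (adjusted p = 0.0358), and Slc40a1, the iron exporter ferroportin, fell (-1.69, adjusted p = 0.0459, named after its value was seen). Hmox1, the haem-degrading enzyme, was at 0.06 ± 0.19 (adjusted p = 0.846).

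Around Mrc1, 8 of 15 genes of the IL-4 and IL-13 response rose in WT and none fell, and 4 rose on average. Among all genes, 19.8% rose and 14.1% fell in WT, and 14.7% rose and 8.17% fell on average. Chil3 (3.41 ± 0.47, adjusted p = 0.00225) and Clec7a, the lectin dectin-1 (2.57 ± 0.37, adjusted p = 0.00245), were first and Ccl24 last (0.06 ± 0.46, adjusted p = 0.936). Around Mertk, 9 of 20 tested genes of apoptotic cell uptake rose in WT and none fell, and 5 rose and 1 fell on average, against the same shares over all genes. Megf10, an engulfment receptor, was first (1.79 ± 0.23, adjusted p = 0.00180), the integrin Itgb5 followed (0.61 ± 0.16, adjusted p = 0.0238), and Dock1 was last (-0.01 ± 0.07, adjusted p = 0.924). None of the genes in these 7 lists was called between KO BLM and KO PBS mice or between the genotypes in either treatment, where 0.251% of all genes rose and 0.0546% fell between the former, and 0.0655% (PBS) and 0.0928% (BLM) differed between the latter.

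The genes whose pattern over the 12 mice was most like each of the 10 were found by the root-mean-square difference of centred log2 CPM, as a description. Lyz2 had the closest neighbour, Slc11a1, a metal transporter of phagosomes, at 0.0956 log2 units, where Lyz2 itself varied by 1.16. Adgre1 was nearest to Ptprc, the common leukocyte antigen CD45 (0.136, own variation 1.01), and Cd68 to Gmfg (0.147, own variation 0.916). Csf1r was nearest to Slc8a1 (0.161, own variation 0.763) and Csf1 to Man1c1 (0.215, own variation 0.609). Mertk was nearest to Sptbn1 (0.119, own variation 0.357) and Cd14 to the metalloproteinase Mmp19 (0.122, own variation 1.07). Mrc1 was nearest to Dab2, an endocytic adaptor (0.219), and after it to P2ry12 (0.257). Cd163 was nearest to Tmeff2 (0.308, own variation 1.28) and then to Cd209b (0.414), and Ly6c2 to Timp1, the metalloproteinase inhibitor (0.611, own variation 2.16). All of these values share the same libraries, including their hair levels.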

How the data were processed

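RNA was extracted from skin of 12 mice, and the authors prepared stranded mRNA libraries and sequenced them as read pairs. The deposited file holds raw read counts per gene symbol, without normalization by the authors, who tested them with DESeq2. The submitters' processing notes name GRCm38.p6 and MultiQC 1.7, and the aligner, the counter and its use of strand are not given in the sources used here. Groups were taken from the sample labels. Counts were filtered with filterByExpr (minimum 10, total 15), scaled by TMM and fitted in edgeR 4.0.16 (R 4.3.3) with quasi-likelihood F-tests on 4 group means over 12 mice, adjusted by Benjamini-Hochberg over 18311 genes at 0.05. The common dispersion was 0.122. For log2 CPM, 2 counts were added as prior, and intervals are 95%. DESeq2 1.42.0, other scalings and filters, only the groups compared, the hair genes as a covariate and leaving out each mouse were alternatives. Leaving out mice 136 and 141 together and adding the counts of copies were chosen after the data were seen. The members, lists and tests were chosen with earlier results of these data known. From each list the text names the genes with the smallest and largest p in the average effect, and for other cell types the most abundant. The steps were checked on simulated data. Exon lengths, positions and shared words are from GENCODE M21, matched by symbol.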

Additional observations from a re-analysis of the deposited data

How the results depend on the processing

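No paired analysis was made, because each library is a separate mouse and no litter or batch of a mouse is given in the sources used here. Of 1192 values of single genes under the alternatives, 1062 kept their direction and their side of the threshold, 64 passed it newly, 27 no longer passed and 39 changed sign. Called members (of 10) between KO BLM and KO PBS, 1 in the fit of all mice, were 2 with DESeq2, 2 with no filter on low counts, 0 with only the groups compared, 5 with the hair covariate and 4 without mice 136 and 141. In KO PBS against WT PBS (0) they were 1 with DESeq2 and 9 without those mice, and for the difference of responses (0) 4 and 10. With the hair covariate the WT comparison called 1 in place of 6, in a fit whose hair slope leans on KO PBS mouse 136. Leaving out each mouse gave 0 to 3 members for KO BLM against KO PBS, 0 to 9 for KO PBS against WT PBS, 0 to 9 for the difference, 0 to 0 for KO BLM against WT BLM, 4 to 8 in WT and 4 to 7 on average. The 3, 9 and 9 came without KO PBS mouse 136, where 14%, 36.7% and 39.9% of all genes were called. The causes were not tested.

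The signs that changed were near 0 for Mrc1 on average, Mertk in WT, and Csf1r and Adgre1 in KO, but not with the hair covariate, which turned differences of responses as large as -1.83 (Cd163). The average effect of Mrc1 became 0.0014 with upper-quartile scaling and 0.0058 with a mean of at least 1 CPM, and ran from -0.23 to 0.28 with each mouse left out. Signs also changed for Mertk in WT (-0.40 to 0.049), and in KO Adgre1 (-0.085 to 0.64, and -0.12 without mice 136 and 141) and Csf1r (-0.43 to 0.21). With the hair covariate the WT values became -0.34 for Csf1, -0.25 for Mrc1 and 0.012 for Mertk, and the KO values 0.52 for Csf1r and 0.049 for Csf1. In KO PBS against WT PBS they became -0.35 (Cd68), -0.16 (Csf1r), -0.23 (Csf1), -0.21 (Lyz2), -0.078 (Mrc1) and -0.27 (Cd14), and in KO BLM against WT BLM 0.57 (Cd68), 0.16 (Csf1), 0.46 (Lyz2) and 0.20 (Cd163). The differences of responses became 0.92 (Cd68), 0.11 (Csf1r), 0.39 (Csf1), 0.67 (Lyz2), 0.090 (Cd163), 0.39 (Ly6c2) and 0.085 (Cd14), and the average of Csf1 -0.15, none of them called. Adding the counts of Ly6c1 turned Ly6c2 to -0.68 in KO and -0.19 on average, where nearly all summed counts are those of Ly6c1.

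The 3 mice per group limit all comparisons, and with 6 to 13 counts in 4 of the PBS mice the fold of Ly6c2 rests on few reads.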
